A study of Mus musculus with 2 samples.

Results

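The genes described here are 9 mouse genes that lay almost wholly under peaks of BUD31 RNA immunoprecipitation sequencing (RIP-seq): Fem1c, Lrrn3, Lgsn, Rprd1a, Bcap31, Alas2, Hprt, Max and Esco1. They were chosen by measured values, as genes of 20 kb or more with over 90% of their length under peaks that name them. The peaks named 3258 genes in all, of which 2113 spanned 20 kb or more and matched the reference table. The thresholds were passed by 16 of those 2113 genes (0.757%), and these 9 are a chosen part of the 16. Counting also protein-coding genes without a peak on the same chromosomes, the 16 were 0.229% of 6987. The covered shares are therefore a description of the choice, and no test was made on them.

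Germ cells were released enzymatically from the testis of C57BL/6J mice on postnatal day 14. They gave 1 library of RNA pulled down with BUD31 antibody and 1 input library made from 10% of the total RNA. No treatment or genotype separated the animals, and the number of animals pooled is not stated. The measurements are 16331 peaks that the authors deposited as mm10 intervals, each assigned to 1 gene and 1 annotation class, without strand, count, fold or score. The depth is thus unknown, and 1 library per group allows neither a replicate spread nor a p-value.

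BUD31 is a protein of the activated spliceosome, the machine that cuts introns out of pre-messenger RNA. A pre-messenger RNA runs through all exons and introns of its gene from start to cleavage site, whereas the mature messenger keeps the exons alone. RNA immunoprecipitation recovers RNA bound by a protein or lying in the same particle, so peaks over a gene can fall on exons, on introns or on both. Germ cells at this age include spermatogonia and cells that have entered meiotic prophase.

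Together the 9 genes spanned 287 kb, of which 272 kb lay under only 20 peaks. A pair of genes, Fem1c and Rprd1a, had 1 peak inside the gene each. Lrrn3, Lgsn, Alas2 and Max had 2, Bcap31 and Hprt had 3, and Esco1 had 4. The covered share ran from 92.2% in Esco1 to 100% in Fem1c, with a median of 93.5%. Among the other 2104 genes of 20 kb or more the median covered share was 11.4% (interquartile range 3.32% to 35.6%), with a median of 3 peaks inside the gene. The 9 genes had a median of 2, or 0.798 per 10 kb of gene against 0.616 in the others, whose median span was 56.8 kb.

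**Figure D1:**
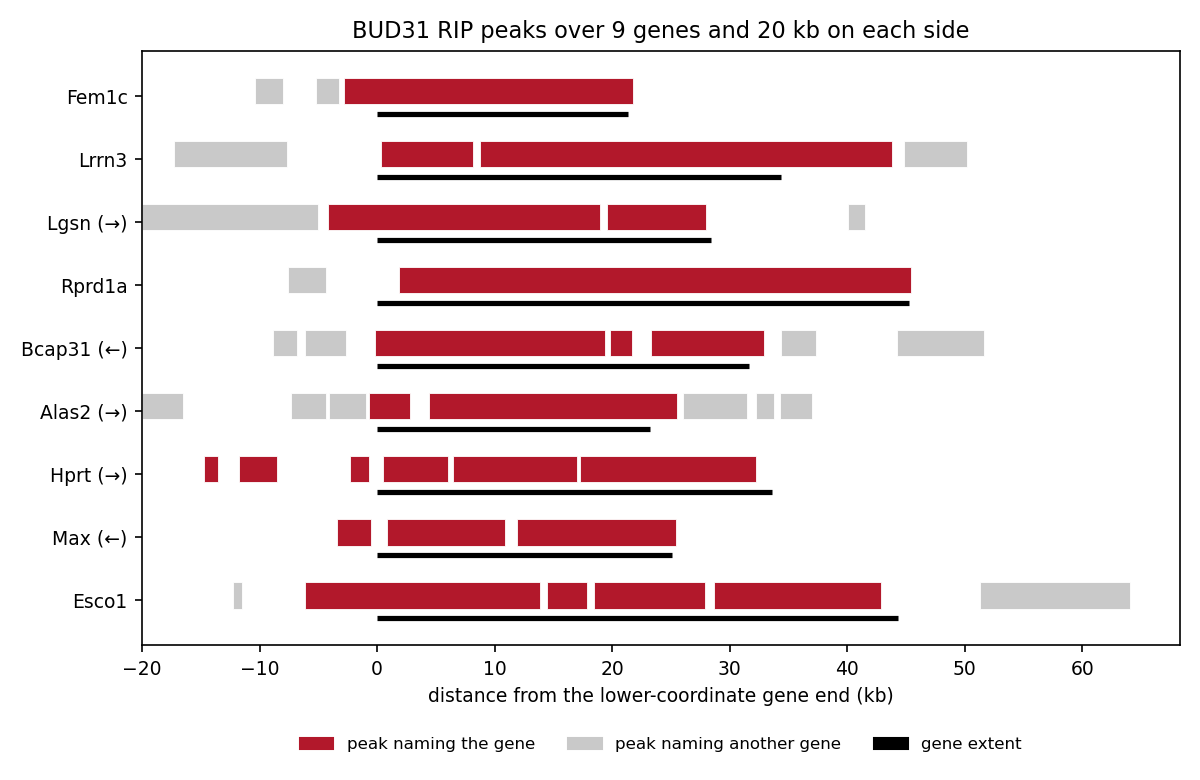
Peaks over the 9 genes and 20 kb on each side of each gene, against the distance from the lower-coordinate gene end in kb. Red boxes are peaks that name the gene, grey boxes peaks that name another gene, and black bars the gene extent, with an arrow after the name where the reference gives the strand. Fem1c and Rprd1a lie under 1 red box each, and Esco1 under 4.

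The 20 peaks were 1840 to 43600 bp wide, and their median width was 12055 bp. The median of the other 16311 peaks was 1400 bp. Of the 20 peaks 12 (60%) were 10 kb or wider, whereas 4.11% of the other peaks were. The widest, over Rprd1a, ranked 9 in width in the whole list, where the widest peak measured 60260 bp. The wide peak of Lrrn3 ranked 18, and that of Fem1c ranked 62. Width entered the choice through the covered share, so these ranks describe how the coverage was reached.

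All 20 peaks inside the genes were classed as intron by the authors. In the whole list 81.8% of peaks were, and among the 683 peaks of 10 kb or more 89.3% were. The class is given once per peak and does not say what else a peak covers. The peak of Fem1c was classed as intron although it held every base of the gene, exons included. Of the 20 peaks 10 lay across a gene end, where the terminal exons are, and all 10 were classed as intron. The list therefore does not separate intron from exon signal in these genes.

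**Figure D2:**
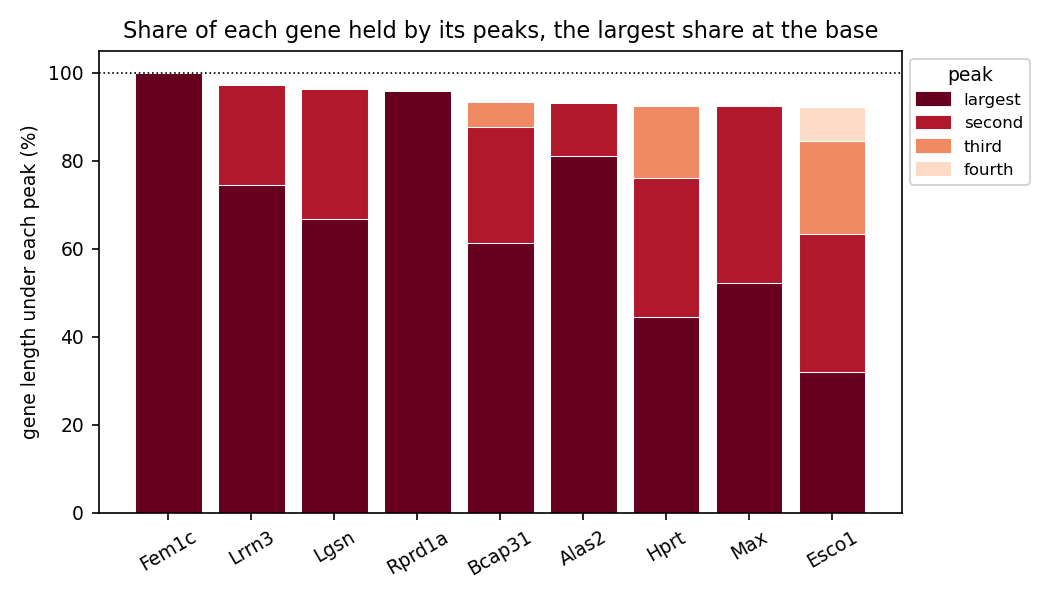
Share of each gene, in percent of its length, under each peak that names it, stacked from the largest share at the base; the dotted line marks 100%. The largest share is 100% in Fem1c and 95.9% in Rprd1a, and the 4 shares of Esco1 add to 92.2%.

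Genes of transcription and chromatin were Rprd1a, Max and Esco1. Rprd1a, whose protein binds the tail of RNA polymerase II, spans 45.3 kb on chromosome 18, from 24484960 to 24530235. Its single peak ran from 24486801 to 24530400, a width of 43600 bp, and covered 95.9% of the gene. It ended 165 bp beyond the higher-coordinate end, less than its bin of 200 bp, the unit in which positions are given on that chromosome. At the lower-coordinate end 1841 bp were bare. The neighbourhood held little else: 16.0% of the 20 kb below the gene and 0.825% of the 20 kb above it lay under a peak. The Rprd1a peak thus stood largely alone, with its higher-coordinate edge near the end of the gene. Its lower-coordinate edge lay inside the gene, and the 1841 bp there were the longest bare end among the genes described.

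Max encodes the partner with which MYC and MXD proteins bind DNA, and in mouse embryonic stem cells it is known to hold back meiotic genes. It spans 25.1 kb on the minus strand of chromosome 12, from 76937269 to 76962323, of which 92.4% was covered. A peak of 13530 bp held 52.3% of the gene on the side of the start, and a peak of 10045 bp held 40.1%. The gap between them was 1025 bp, or 5 bins of 205 bp. Of these 2 peaks 1 names a predicted noncoding transcript model of the gene. The wider peak reached 417 bp beyond the start. The last 872 bp of the gene were bare, and a further peak of 2870 bp, classed as intergenic and named for Max, began 563 bp beyond the far end.

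Esco1 encodes an enzyme that acetylates cohesin, the ring that holds sister chromatids together. It spans 44.4 kb on chromosome 18, from 10566507 to 10610863, and had the lowest covered share of the 9 genes at 92.2%, over 4 peaks. Their widths, in order of position, were 20000, 3400, 9400 and 14200 bp, and the gaps between them 600, 600 and 800 bp. No peak held more than 32.0% of the gene, the lowest such value of the 9. The first peak began 6106 bp below the lower-coordinate end of the gene, and 2545 bp of it lay over the neighbour Greb1l. At the higher-coordinate end 1463 bp were bare. Of the 4 peaks 3 name a predicted noncoding transcript model of the gene.

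Genes of metabolism were Hprt, Alas2 and Lgsn. Hprt, the X-linked enzyme that salvages hypoxanthine and guanine into nucleotides, spans 33.6 kb on the plus strand, from 52988078 to 53021660. Its 3 peaks widened along the gene, with 5520, 10580 and 14950 bp, and covered 92.5% of it. The gaps were 460 and 230 bp, the second being 1 bin and the narrowest of the 9 genes. Neither end of Hprt lay under a peak, and it was the only one of the 9 of which this was so: 473 bp at the start and 1370 bp at the far end were bare. Hprt also had the most peaks outside the gene, 4 classed as intergenic between 677 and 21607 bp before its start.

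The start of Hprt lay in a bare stretch of 1150 bp, from 52987401 to 52988550. No running number is missing there, since the peaks on both sides carry consecutive numbers. The RefSeq promoter window had 0 of its 300 bases under a peak. Such a window holds 250 bases before the start given in the promoter table and 50 from there on. That start is the first base of the gene extent in Hprt and Alas2, but lies 154 bp inside the extent in Lgsn, 75 bp in Max and 1611 bp in Bcap31. Windows were given for 5 of the 9 genes, and those of Lgsn, Max, Bcap31 and Alas2 lay wholly under a peak. Among the genes of 20 kb or more with a peak and a window, 135 of 1648 (8.19%) had the whole window under a peak. Windows of genes chosen for their coverage lie in part inside the covered extent, so nothing is read from this difference.

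The sequences of 3 promoters are shown because they set the bare start of Hprt beside covered starts of Max and Alas2. Each runs 5′ to 3′ from 250 bases before the promoter table's start through the first 10 bases from it, from RefSeq on GRCm38.p6. Capitals mark motifs found on either strand. These are GGGCGG, the core of the GC box, and CACGTG, the E-box that MAX binds. The others are AGATAA, a core that GATA factors bind, and the TATA box letters TATAAA.
Hprt, chrX:52987828-52988087, plus strand: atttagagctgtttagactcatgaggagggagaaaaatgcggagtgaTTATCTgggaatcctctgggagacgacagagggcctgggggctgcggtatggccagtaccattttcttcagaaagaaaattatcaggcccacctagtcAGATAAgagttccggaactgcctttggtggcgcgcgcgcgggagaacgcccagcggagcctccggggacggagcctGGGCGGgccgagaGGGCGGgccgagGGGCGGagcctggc
Max, chr12:76962239-76962498, minus strand: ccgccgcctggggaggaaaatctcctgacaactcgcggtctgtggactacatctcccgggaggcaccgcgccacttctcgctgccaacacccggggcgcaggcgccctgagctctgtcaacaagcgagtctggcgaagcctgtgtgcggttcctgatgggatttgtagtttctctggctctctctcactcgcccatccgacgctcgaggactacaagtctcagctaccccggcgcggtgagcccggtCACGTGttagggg
Alas2, chrX:150547167-150547426, plus strand: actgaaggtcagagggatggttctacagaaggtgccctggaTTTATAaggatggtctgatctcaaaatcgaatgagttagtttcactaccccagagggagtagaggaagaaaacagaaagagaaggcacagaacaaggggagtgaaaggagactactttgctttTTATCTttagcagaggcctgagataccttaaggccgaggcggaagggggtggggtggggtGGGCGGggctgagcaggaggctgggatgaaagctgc

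The Hprt window held 3 GC box cores and 2 GATA cores, the Max window held 1 E-box across the start given in that table, and the Alas2 window held 1 each of the GC box, GATA and TATAAA letters. Of 27025 promoters 33.7% held GGGCGG, 6.40% CACGTG, 13.3% TATAAA and 10.5% AGATAA in the same window. G and C made up 65.0% of the covered window of Bcap31, 64.7% of that of Max, 52.3% of that of Alas2 and 47.3% of that of Lgsn. They made up 61.0% of the bare Hprt window, which lies within this range, and the median over all promoters was 52.7%. A match of letters is a description and not evidence of binding.

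Alas2, the first enzyme of heme synthesis in red cell precursors, spans 23.2 kb on the plus strand of the X chromosome, from 150547417 to 150570622. Its 2 peaks measured 3450 and 21160 bp and covered 93.1% of it, the wide one holding 81.2% of the gene. The gap of 1610 bp between them skips 1 running number, the only one of the 11 gaps in the 9 genes that does. Both ends lay under peaks, which reached 686 bp before the start and 2328 bp beyond the far end. The narrow peak also covered all 61 bp of Mir3620, a microRNA gene on the minus strand at the Alas2 start. Its mature forms are shown with bases 2 to 8, the seed, in capitals, because the list gives no strand and names Alas2 alone for this peak.
mmu-miR-3620-5p: cUGUGGGCugggcugggaagca
mmu-miR-3620-3p: cUGCUCAGccccgcccacccca

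The whole of Alas2 lies within the reference extent of Apex2, a gene for a DNA repair nuclease that spans 161 kb there. Peaks of any name covered 93.1% of Alas2 and 62.5% of the rest of Apex2, and 51.7% and 61.1% of the 20 kb below and above Alas2. Peaks that name Apex2, 7 in all, covered 15.1% of its whole extent. Reads over Alas2 cannot be told apart from reads of Apex2, since Alas2 lies within that extent. Of the 7 other erythroid markers on chromosomes with peaks 1 had a peak, which is near the 18.8% of all protein-coding genes there. It was Tfrc, the transferrin receptor, with a single intron peak of 600 bp. Gata1, on the X chromosome like Alas2, had none, nor did Klf1, Slc4a1, Hba-a1 and Hba-a2. Of germ cell markers there 3 of 4 had a peak (Sycp3, Mael and Boll, not Dazl), and of Sertoli cell markers 2 of 5 did (Wt1 and Kitl). The markers were not matched on gene length. Erythroid markers there without a peak spanned 0.815 kb (Hba-a1) to 17.4 kb (Gata1). The germ and Sertoli cell markers with a peak spanned 13.65 kb (Sycp3) to 120 kb (Boll). Nothing about cell types is therefore read from these counts. The part of other cells in the coverage of Alas2 was not tested, and in such a bulk sample fewer cells of a type and less RNA per cell cannot be told apart.

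Lgsn encodes lengsin, a lens protein with a glutamine synthetase domain. It spans 28.4 kb on the plus strand of chromosome 1, from 31176281 to 31204725. Peaks of 23165 and 8405 bp, 615 bp apart, covered 96.3% of it. The wide peak began 4185 bp before the start, and 445 bp at the far end were bare. Lgsn lies within the long noncoding RNA gene 4931428L18Rik, which is on the other strand and spans 81.6 kb. That gene was covered over 67.4% outside Lgsn, and 95.9% of the 20 kb before the Lgsn start lay under a peak, against 7.18% of the 20 kb beyond its far end. The covered stretch thus ran across the start of Lgsn, while the noncoding gene, from 31141078 to 31222656, reaches past both ends of Lgsn. RNA of the 2 strands cannot be told apart here.

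Genes of protein handling and of the cell surface were Fem1c, Bcap31 and Lrrn3. Fem1c encodes a receptor that brings substrates with certain C-terminal ends to a CUL2 ubiquitin ligase. It spans 21.4 kb on chromosome 18, from 46504606 to 46525971, and was the only one of the 9 genes covered in full. Its single peak, from 46501801 to 46526400, was 24600 bp wide and passed the lower end by 2805 bp and the higher end by 429 bp. Of the 20 kb below the gene 36.0% lay under peaks, and of the 20 kb above it 2.15%.

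Bcap31, a membrane protein of the endoplasmic reticulum that escorts other membrane proteins, spans 31.6 kb on the minus strand of the X chromosome, from 73686178 to 73717815. Its peaks of 19550, 1840 and 9660 bp covered 93.5% of it. Gaps of 460 and 1610 bp lay between them, the second as wide as the gap in Alas2. Both ends were under peaks, by 157 bp at the far end and by 1325 bp at the start.

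Lrrn3, a leucine-rich repeat membrane protein of neurons, spans 34.4 kb on chromosome 12, from 41451668 to 41486057. Its 2 peaks, of 7790 and 35055 bp and 615 bp apart, covered 97.2% of it. The wider peak passed the higher-coordinate end by 9428 bp, the longest overhang of the 9 genes, and 358 bp at the other end were bare. Lrrn3 lies wholly inside Immp2l, a gene of 932 kb for a mitochondrial inner membrane peptidase, and the overhang runs on within that gene. Outside Lrrn3, 44.4% of Immp2l lay under peaks of any name, and its own 92 peaks covered 41.7% of its whole extent. Of the 20 kb on either side of Lrrn3 48.2% and 73.8% lay under peaks. The stretch was thus dense but less so than Lrrn3 itself, which was chosen for its coverage. RNA of Lrrn3 and of Immp2l cannot be told apart in these peaks.

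**Figure D3:**
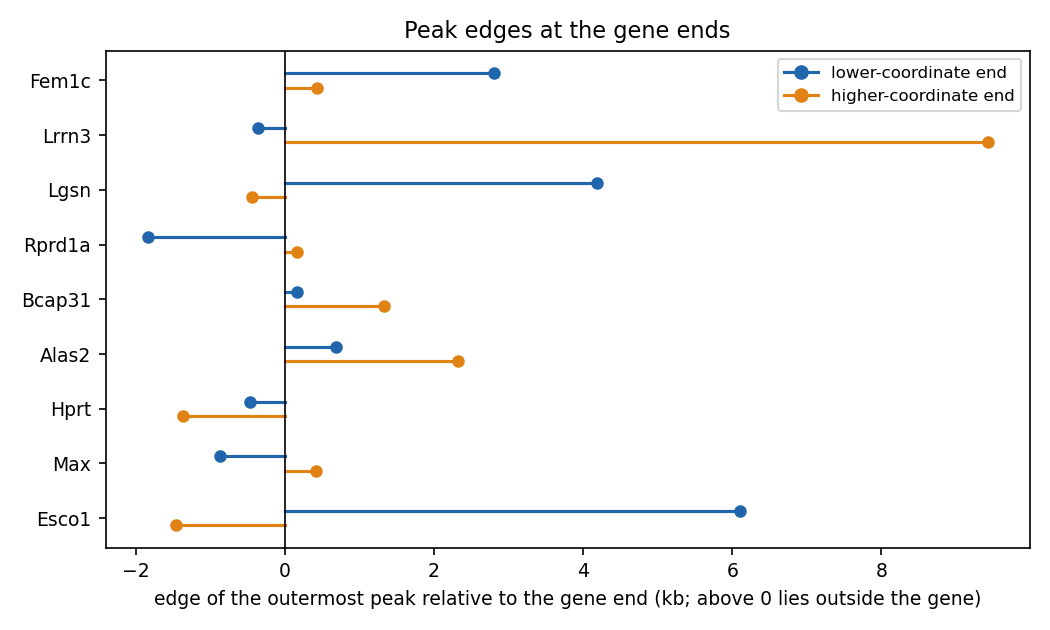
Edge of the outermost peak relative to each gene end in kb, where values above 0 lie outside the gene and values below 0 leave the end bare. Blue points are lower-coordinate ends and orange points higher-coordinate ends. The longest overhang is 9428 bp in Lrrn3, and Hprt is bare at both ends.

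Across the 18 ends of the 9 genes, 11 (61.1%) lay under a peak that names the gene, against 457 of 4208 ends (10.9%) of the other genes. Both ends were covered in 3 of the 9 (Fem1c, Bcap31 and Alas2) and at least 1 end in 8. Over all 2113 genes these shares were 1.61% and 20.5%. A gene covered over 90% of its length has little room for bare ends, so the count follows in part from the choice. The length past the end belongs to the same wide peaks that the choice favoured, and is likewise a description. It had a median of 1325 bp in the 9 genes (interquartile range 423 to 3495 bp, from 157 to 9428 bp), against 520 bp (170 to 1320 bp) at the covered ends of the other genes. At the other 7 ends 358 to 1841 bp were bare (median 872 bp). At 7 of the 18 ends the peak edge lay within 500 bp of the gene end, on either side of it.

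For the 5 genes whose strand the reference gives, 4 starts lay under a peak, all but that of Hprt, and 2 far ends did, those of Bcap31 and Alas2. Among the other 1643 genes with a strand the order was the other way, with 7.91% of starts and 12.8% of far ends under a peak. With 5 genes this difference in order is a description only.

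**Figure D4:**
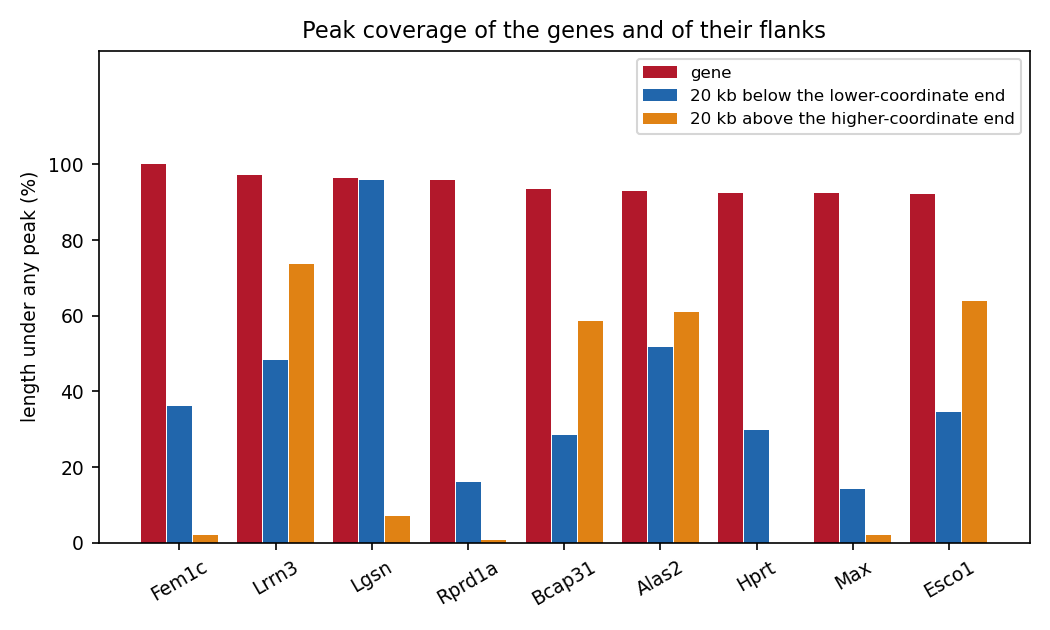
Length under any peak, in percent, for each gene (red), for the 20 kb below its lower-coordinate end (blue) and for the 20 kb above its higher-coordinate end (orange). Every gene stands above its own flanks, which the choice by coverage favours. The difference is least in Lgsn, with 96.3% for the gene and 95.9% for its lower flank.

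The flanks lie outside the length that was used to choose the genes, but the peaks over the genes run on into them, so their shares are a description too. Over the 18 flanks of 20 kb the covered share ran from 0% above Hprt to 95.9% below Lgsn, with a median of 32.2%, against 0% over the 4208 flanks of the other genes. In 6 of the 18 flanks over 50% was covered, and 5.47% of the other flanks were. These 6 belonged to Lrrn3, Lgsn, Esco1, Bcap31 and, on both sides, Alas2. The genes nested in another gene, Lrrn3, Lgsn and Alas2, thus held 4 of them, and the 6 genes that are not nested held 2. Rprd1a, Fem1c, Max and Hprt stood out from flanks covered over 36.0% at most. Flanks of 1 gene can hold parts of a neighbour with peaks of its own, and flanks of the other genes can overlap each other. In the comparisons of flanks, gene ends and peak widths, the other genes and peaks were not matched on chromosome or gene span.

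A gene covered over 90% of its length leaves little room for gaps, so the short gaps and few skipped numbers follow from the choice, and nothing is read from them. The 11 gaps inside the 9 genes were 230 to 1610 bp long, and the median gap was 615 bp or 3 bins. Of the 11 gaps 7 were of 3 bins or fewer, against 31.3% of the 12939 gaps between neighbouring peaks of the same gene in the whole list, where the median was 1640 bp or 8 bins. A skipped running number stood in 1 of the 11 gaps and in 37.9% of all pairs. The shortest gap of all pairs was 1 bin, the same as the shortest in the 9 genes.

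**Figure D5:**
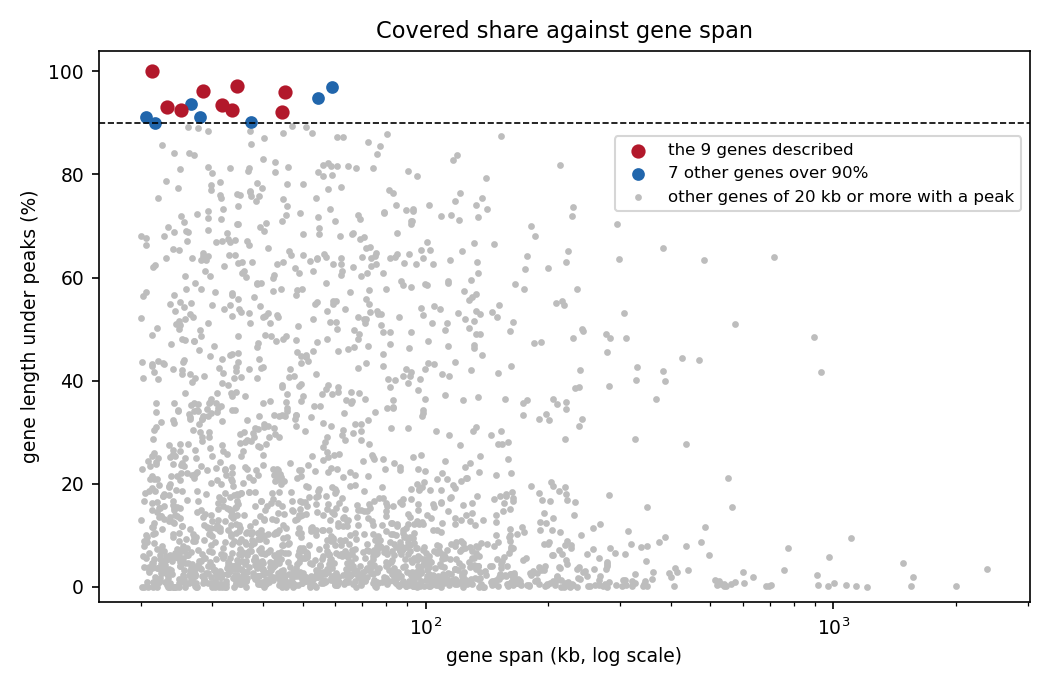
Percent of gene length under peaks against gene span in kb on a log axis, for the 2113 genes of 20 kb or more with a peak. Red points are the 9 genes described, blue points the 7 others over 90%, grey points the rest, and the dashed line marks 90%. The red points lie between 92.2% and 100%.

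The same thresholds were passed by 7 further genes, among them Mrps9 (94.9%), Eif4e2 (93.6%), Zfp410 (91.2%), Vbp1 (91.1%), Akap17b (90.1%) and Tbc1d25 (90.04%). The last 3 are the genes just inside the threshold. Rnf149 (89.3%) and Mbtps2 (89.2%) were among those just outside it. Just under 20 kb in span, with over 90% covered, were Mex3c (19942 bp), Nono (19034 bp) and Hdac6 (17932 bp). The 7 further genes held 21 peaks, of which 17 were classed as intron, and 5 of their 14 ends lay under a peak.

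All 16 genes lay on chromosomes 1, 12, 18 and X, with 3, 3, 3 and 7 of them. These were 0.785%, 1.22%, 1.81% and 2.30% of the genes of 20 kb or more with a peak on each. The 9 genes fell as 1 on chromosome 1, 2 on chromosome 12, 3 on chromosome 18 and 3 on the X chromosome. Coverage over 90% was found in 14 of 953 genes of 20 to 50 kb, in 2 of 620 genes of 50 to 100 kb and in none of 540 longer genes. The highest share among the longest genes was 87.4%.

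Other genes of the pathways and families of the 9 were less covered, as the choice of the 9 by their coverage would give. In 9 lists, 1 for each gene, 22 of the 55 other genes on chromosomes with peaks had a peak (40%, Wilson 95% interval 28.1% to 53.2%), against 18.8% of all protein-coding genes there. The lists were not matched on gene length or chromosome, and were chosen with earlier results of these data known. Nothing is therefore read from this difference, and the interval is no test of it. None of the 22 was covered over 90%. Coverage over 50% was found in 7 of the 22 (31.8%) and in 531 of all 2799 protein-coding genes with a peak (19.0%), of any span, and nothing particular to the lists is read from it. The interval covers counting error over genes only.

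In the counts by list that follow, the gene that each list was made for is left out. Among the cohesin genes 7 of 13 had a peak. Smc1a, a core cohesin subunit, had 9 peaks inside the gene over 72.2% of its length, and Stag2, another subunit, had 11 over 50.2%. Hdac8, which removes the acetyl mark that Esco1 sets, had 16 peaks inside the gene over 34.5%. The loader subunit Mau2 had 2 over 32.6%. The regulators Pds5a and Pds5b were covered over 2.81% and 8.62%, with 1 and 24 peaks inside, and the meiotic subunit Stag3 over 2.51%.

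In the CUL2 ligase list 3 of 7 had a peak. Klhdc2, another receptor for C-terminal ends, was covered over 65.7%, the adaptor Eloc over 58.7%, and Cul2 itself over 10.1%. Of the RPRD proteins and polymerase tail phosphatases 3 of 5 had a peak, with Ctdp1 covered over 52.0%, Rpap2 over 13.0% and Ctdspl2 over 0.334%. In the list of BAP31 and its partners 3 of 6 did: the paralog Bcap29 was covered over 69.9% by 6 intron peaks, Cdip1 over 10.5% and Fis1 over 4.63%.

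Of the MYC, MAX and MXD network 3 of 10 had a peak. Mxd4, a repressor that pairs with MAX, was covered over 65.7% by 1 peak of 7600 bp, whereas Mlxip and Mlxipl were covered over 6.94% and 0.802%. Of 5 heme synthesis genes 1 had peaks, Fech, the last enzyme of the pathway, covered over 25.8%. Of 5 purine genes 1 did, Dck, and its peak was intergenic, 200 bp wide and outside the gene. Glul, the glutamine synthetase that Lgsn resembles, was covered over 33.5% by 3 peaks. None of the 3 other LRRN genes had a peak.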

How the data were processed

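The only data are the authors' deposited peak list, whose start and end positions have no score or other unit of strength. Per the submitters' processing notes, TopHat2 2.0.13 was used and the build was mm10. How peaks were called, at what threshold and against which background is not given in the sources used here. Every position is a multiple of a bin of 200 to 230 bp on the chromosomes of the 9 genes.

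Gene numbers were matched to a RefSeq table of GRCm38.p6, the mm10 assembly, for 3216 of 3258 genes. A gene's covered length counts its bases in that table under peaks that name it, and its start and far end are the ends of that extent. For flanks, promoter windows and the parts of enclosing or overlapping genes outside the 9, peaks of any name were counted. Strand came from the promoter table, which held 5 of the 9 genes. Fold changes and tests were not possible with 1 library per group, so values are counts, shares, medians and ranges, with Wilson 95% intervals for shares of genes. The overlap minimum was 1 bp.

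The members and lists were chosen with earlier results of these data known. Named genes are the 9, genes their peaks overlap, the 3 genes on each side of the thresholds, the others past them, and list members with a peak. Some genes that this rule would name are not reported here. Alternatives changed which peaks count, the thresholds and the joining of gaps. The last 3 alternatives, with joining across 3 bins or other genes' peaks, and the promoter motifs were chosen after seeing the data. Python 3.11.15, numpy 2.4.6, pandas 2.3.3, scipy 1.17.1 and matplotlib 3.10.9 were used.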

Additional observations from a re-analysis of the deposited data

How the results depend on the processing

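No paired analysis was possible because each group has 1 library, and for the same reason no replicate could be left out. All 9 genes stayed over 90% when every overlapping peak counted and when only classes inside genes counted. Neither setting could lower a share here, so nothing is read from them. Counting further peaks can only raise a share, and all 20 peaks inside the genes were classed as intron. Dropping peaks under the median width of their chromosome could lower a share, and all 9 genes stayed over 90%. With each peak trimmed by 1 bin at both ends, 6 of the 9 did, and Max (89.97%), Esco1 (89.0%) and Hprt (88.3%) did not. The number of genes past the thresholds depends on them by construction: it was 59 at over 80%, 5 at over 95%, 32 with spans of 10 kb or more and 85 with no minimum span, against 16 as reported. Counting every overlapping peak gave 20 genes, adding Usp14, C330007P06Rik, Eif5b and Gm52447, and protein-coding genes alone gave 16.

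The 11 gene ends under a peak were the same number in every joining, which could raise this number but not lower it. Joining gaps of up to 1 bin left 19 pieces in place of 20, and joining up to 3 bins left 13. With peaks of any name joined over up to 1 bin, the stretch before the Alas2 start grew to 7356 bp. Over up to 3 bins that beyond its far end grew to 13828 bp and that below Fem1c to 5205 bp. A stricter peak threshold was not run, since no strength is given. The unknown depth means that a bare stretch cannot be read as absence of RNA.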
